A study of Mus musculus with 15 samples.

Results

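The genes described here are 10 members of the BCL2 family of apoptosis regulators: Bcl2, Bcl2l1, Mcl1, Bax, Bak1, Hrk, Bbc3, Bcl2l11, Bid and Pmaip1. They were taken by symbol from a table of read counts for 24498 genes in primary mouse hippocampal neurons. Hrk was among them because earlier results had shown it higher with an ACSS2 inhibitor, so its inhibitor values are given as a description with no test; the other 9 were taken as relatives of known function. All 10 were among the 15075 genes that passed the filter on low counts.

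Neurons came plated from a university neuronal core, were kept in neurobasal medium with B27, and had differentiated for 7 days before a 24 h treatment. ACSS2 is the nuclear and cytosolic enzyme that turns acetate into acetyl-CoA. The DMSO vehicle group (4 libraries) received medium and the inhibitor's solvent, the DMSO acetate group (4) received 5 mM acetate and solvent, the inhibitor vehicle group (3) received 20 uM ACSS2 inhibitor and medium, and the inhibitor acetate group (4) received both agents. Acetate was used to model heavy drinking. The labels give no strain, age, sex or number of animals and do not say that replicates were separate cultures; p-values therefore speak only of the spread between these libraries.

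BCL2 family proteins decide whether the outer membrane of mitochondria is opened. Guardians (Bcl2, BCL-XL encoded by Bcl2l1, and Mcl1) hold the effectors Bax and Bak1 in check, and the effectors form the pores through which cytochrome c leaves to start the caspases. BH3-only proteins (Hrk, PUMA encoded by Bbc3, BIM encoded by Bcl2l11, Bid, and NOXA encoded by Pmaip1) bind guardians or activate effectors. In neurons, Hrk, Bbc3 and Bcl2l11 are known to be induced when trophic support is withdrawn, through JNK and FoxO signalling. Only transcripts were measured here, not protein or cell death.

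Gene counts ranged from 19688231 to 39234799 per library, so that 1 count was worth 0.028 to 0.054 CPM (a gene's reads as a rate of its library's, scaled by edgeR's trimmed mean of M-values, TMM). All 14 neuron markers were detected. Markers of other cells moved with acetate: a non-neuronal score, the mean log2 CPM of 5 lists (astrocyte, oligodendrocyte lineage, microglia, vessel, meninges), was 3.82 ± 0.55 (SD, n = 4) for DMSO vehicle and 1.96 ± 0.07 (n = 4) for DMSO acetate. With the inhibitor it was 3.19 ± 1.20 (n = 3) without and 1.85 ± 0.14 (n = 4) with acetate. A pair of vehicle libraries stood apart from their groups: DMSO vehicle 1 scored 3.01 against 3.96 to 4.17 in the others, and inhibitor vehicle 2 scored 1.82, as low as the acetate libraries. The summed neuron markers lay between 4769 and 7296 CPM in the vehicle libraries of both arms and between 8586 and 10573 CPM in the acetate libraries. The microglial sum ran from 131 to 648 CPM in DMSO vehicle libraries and from 31.1 to 51.3 with acetate. In the inhibitor arm these ranges were 25.8 to 523 and 21.7 to 62.6 CPM. The oligodendrocyte lineage sum did not follow: it ran from 284 to 879 CPM in DMSO vehicle and from 706 to 991 in DMSO acetate. With inhibitor its ranges were 245 to 1094 and 438 to 1100 CPM. The mean log2 CPM of that list was still lower with acetate (3.63 and 2.68 in DMSO, 3.14 and 2.45 with inhibitor). Xist (means 66.1, 128, 63.9 and 149 CPM in DMSO vehicle, DMSO acetate, inhibitor vehicle, inhibitor acetate) and the Y-linked Eif2s3y (18.3, 10.3, 18.1 and 11.4 CPM) also moved with acetate. In bulk RNA fewer cells of a type cannot be told apart from less RNA per cell, and the part of these shifts in each acetate value below cannot be told apart from a response within neurons. The labels name no animals or culture batches, so a difference in source between acetate and vehicle cultures cannot be told apart from acetate either, and each acetate fold compares those cultures as they are.

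**Figure D1:**
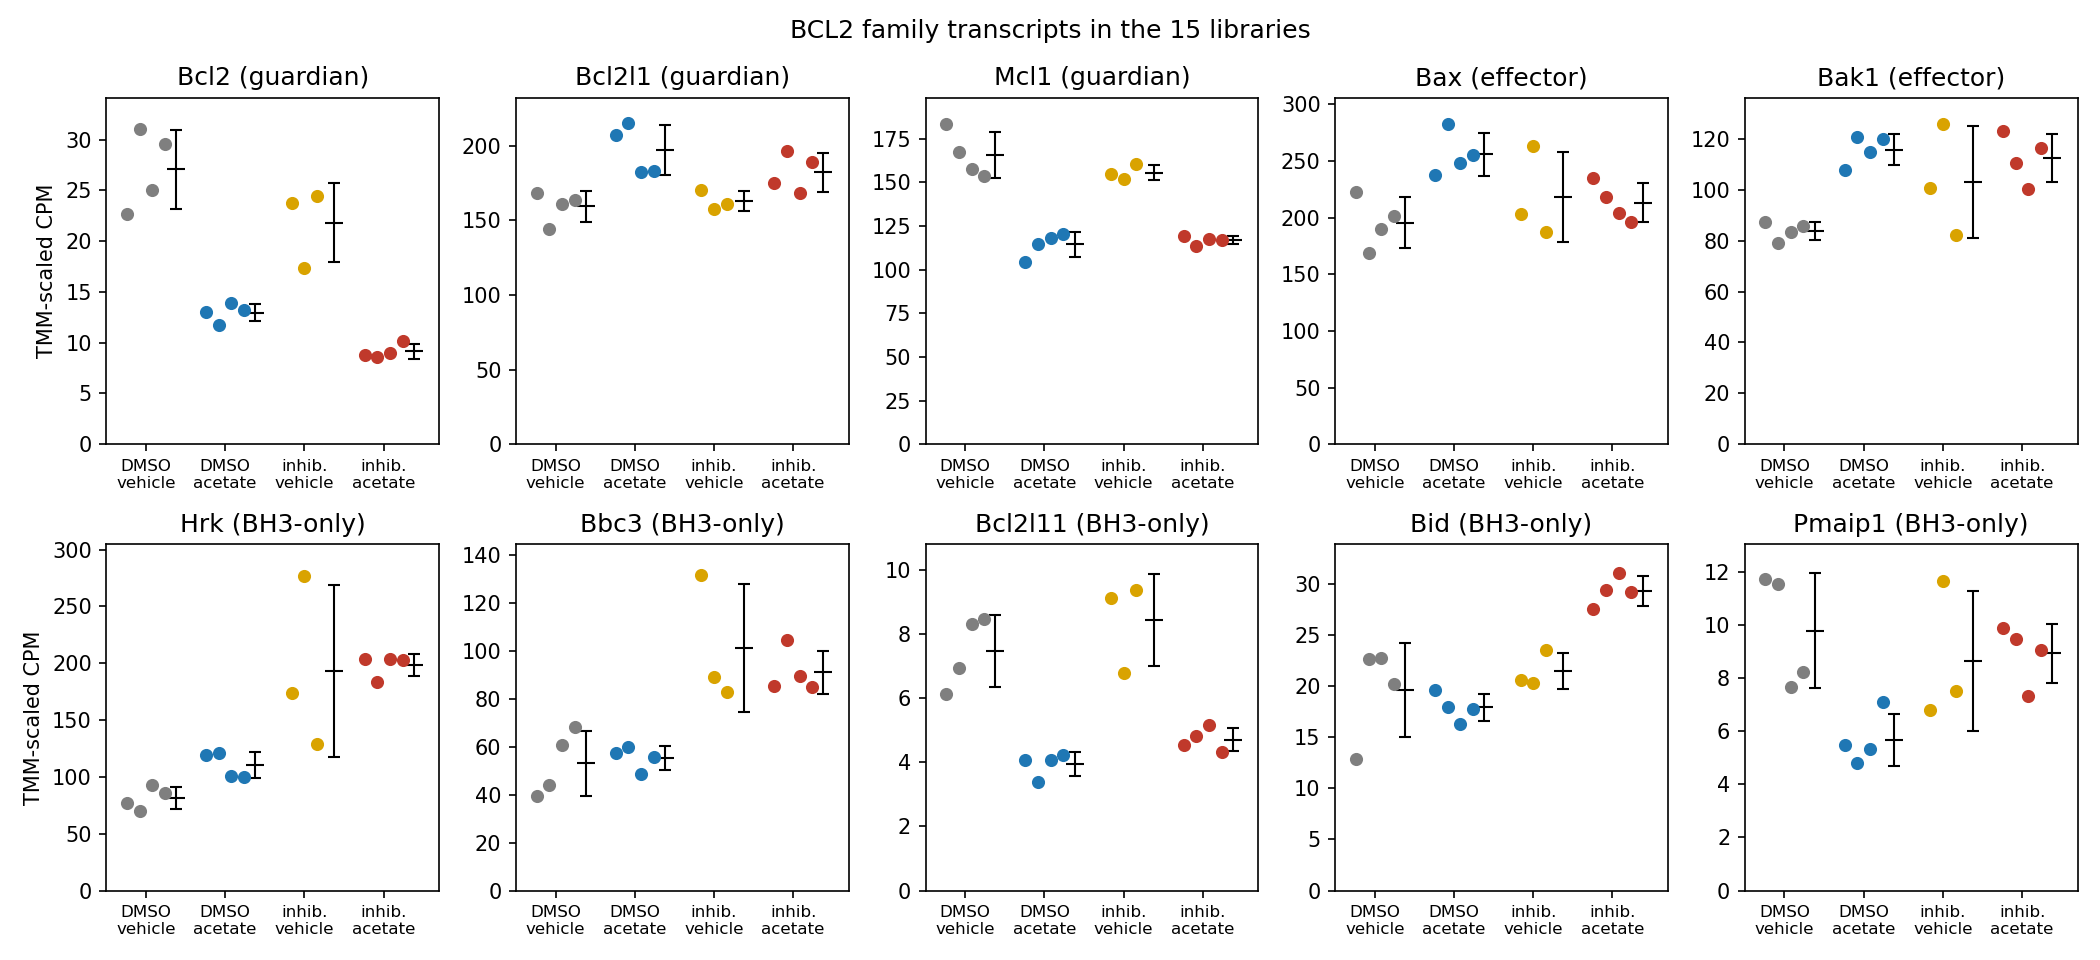
TMM-scaled CPM of the 10 BCL2 family genes (y axes, each from 0) in the 4 treatment groups (x axes); each point is a library, and the bar beside it is the group mean with 1 SD (n = 4, or 3 in inhibitor vehicle). Bcl2, Mcl1 and Bcl2l11 are lower in every acetate library than in every vehicle library of the same arm, while Hrk and Bbc3 are higher in every inhibitor library than in every DMSO library of the same acetate state.

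Per kilobase of exon, the 10 genes differed widely in level. Bax had the highest mean in all 4 groups (124, 162, 138 and 135 CPM per kb in DMSO vehicle, DMSO acetate, inhibitor vehicle and inhibitor acetate), above every other member. In DMSO vehicle it was followed by Mcl1 (48.4 ± 3.85), Bak1 (34.8 ± 1.52), Bcl2l1 (34.7 ± 2.27), Bbc3 (25.0 ± 6.41) and Hrk (14.3 ± 1.75 CPM per kb, SD, n = 4). Bak1 and Bcl2l1 did not differ beyond their spread in that order. Bid (5.52 ± 1.31), Pmaip1 (3.58 ± 0.787), Bcl2 (2.96 ± 0.425) and Bcl2l11 (0.929 ± 0.139) were lower still; Pmaip1 and Bcl2 lay within each other's spread. The guardians were thus represented mainly by Mcl1 and Bcl2l1 transcripts, with Bcl2 far below both. The order of the top ranks differed by group: Mcl1 ranked 2 in DMSO vehicle (48.4) and 6 in inhibitor acetate (34.2), where Hrk stood at 35.0 and Bbc3 at 42.9 CPM per kb, and Mcl1 and Hrk were then within each other's spread. These levels rest on the exon union of GENCODE M21 models, since no source used here names the authors' annotation.

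Acetate in DMSO was the comparison in which most members were called. At a Benjamini-Hochberg adjusted p under 0.05 in edgeR's quasi-likelihood test, 4 of 10 were higher (Hrk, Bcl2l1, Bax, Bak1) and 4 were lower (Bcl2, Bcl2l11, Pmaip1, Mcl1), where 23.7% of all tested genes were called higher and 27.5% lower. The members' share was thus above the background in both directions, but with 10 genes this is a description only. In the presence of inhibitor, acetate gave 1 higher call (Bid) and 3 lower ones (Bcl2, Bcl2l11, Mcl1), against a background of 14.5% higher and 20.6% lower. The libraries of 4 members were all higher and of 4 all lower with acetate in DMSO, beside 22.1% and 23.3% of all genes, and of 1 and 3 members with inhibitor, beside 16.4% and 16.4%. The median fold of the 10 members was -0.03 and 0.003 on the log2 scale in these comparisons, beside medians of -0.03 and -0.03 over all tested genes. Members therefore moved in opposite directions in both comparisons, with the family as a whole near the median of all genes.

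**Figure D2:**
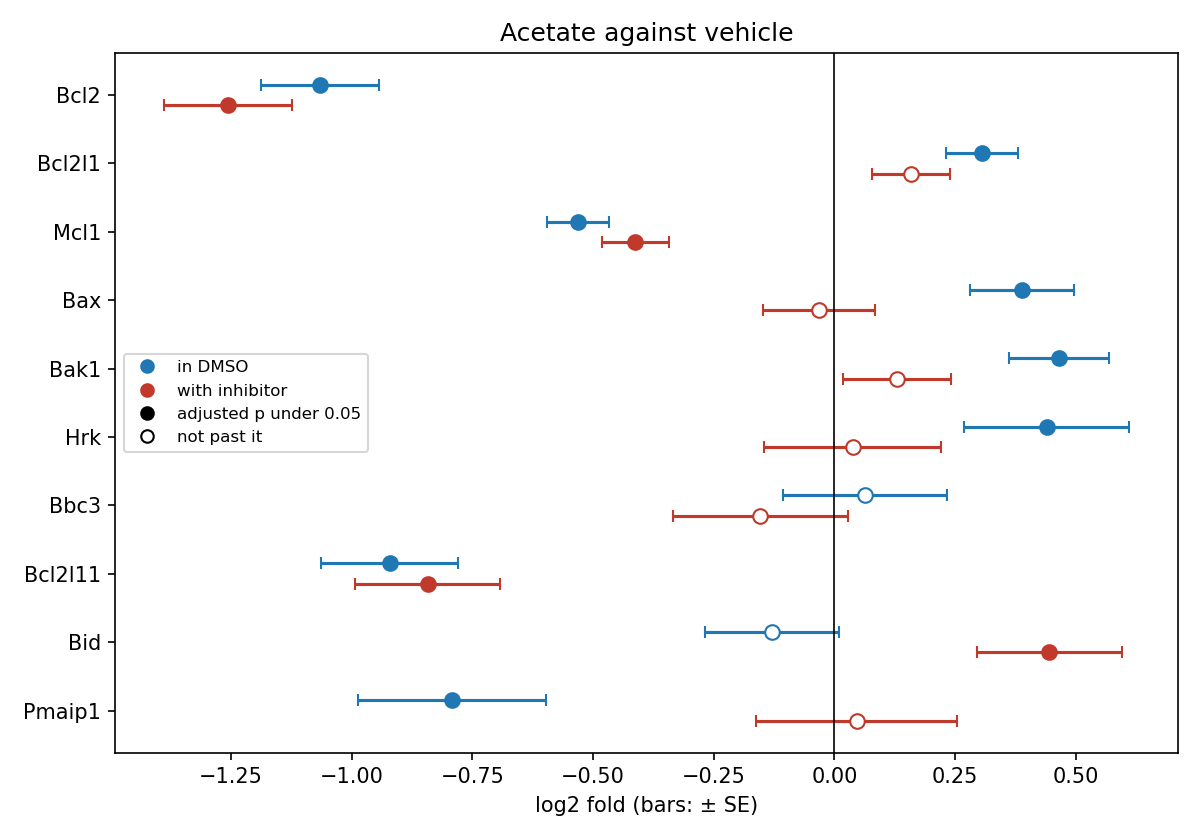
Log2 fold of each BCL2 family gene (y axis) for acetate against vehicle, in DMSO (blue) and with the ACSS2 inhibitor (red), with the SE as bars; filled points have an adjusted p under 0.05. Bcl2, Bcl2l11 and Mcl1 lie to the left with both solvents, and the 4 genes called higher in DMSO lie to the right of 0.

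The guardians split. Bcl2, the founding guardian, is on chromosome 1 (mm10, 1:106538178-106714274, minus strand). It measured 22.7, 31.0, 25.0 and 29.6 CPM in DMSO vehicle, against 13.0, 11.8, 13.9 and 13.2 in DMSO acetate; it measured 23.7, 17.3 and 24.4 in inhibitor vehicle, and 8.75, 8.59, 8.99 and 10.2 in inhibitor acetate. Every acetate library was below every vehicle library, and the inhibitor acetate libraries were the lowest of all. Bcl2 was 2.09-fold lower with acetate in DMSO (log2 fold -1.06, SE 0.12, adjusted p = 2.44e-05) and 2.39-fold with inhibitor (log2 fold -1.26, SE 0.13, adjusted p = 5.38e-05). Within the acetate cultures the inhibitor groups did not overlap either (log2 fold -0.50, SE 0.13, adjusted p = 0.0308), but this call was lost in 7 of 15 fits that left out a library (adjusted p 0.0533 to 0.0992). Without acetate the inhibitor fold was -0.31 (SE 0.13, adjusted p = 0.151) and the groups overlapped. Of the libraries without acetate, inhibitor vehicle 2 had the lowest Bcl2, and it also had the lowest non-neuronal score of that set. An antisense gene shares exon bases with Bcl2, and no source used here says whether the counting used strand, which leaves its reads possibly included.

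Mcl1, a short-lived guardian on which developing neurons depend (3:95658788-95663176, plus strand), had tight groups. Its level was 183, 167, 157 and 154 CPM in DMSO vehicle, against 105, 115, 118 and 121 in DMSO acetate. With inhibitor it was 155, 152 and 160 CPM without acetate and 119, 114, 118 and 117 with it. Acetate and vehicle libraries were separated by a gap in both arms, and DMSO and inhibitor libraries overlapped. The acetate fold was -0.53 (log2, SE 0.06, adjusted p = 3.67e-05) in DMSO and -0.41 (SE 0.07, adjusted p = 0.000962) with inhibitor, and the inhibitor folds were -0.09 and 0.03 (SE 0.07 and 0.06, adjusted p = 0.454 and 0.845).

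Bcl2l1, which encodes BCL-XL, the main guardian of mature neurons (2:152780668-152831728, minus strand), went the other way. It measured 168, 144, 161 and 163 CPM in DMSO vehicle, against 207, 215, 182 and 183 in DMSO acetate. With inhibitor the values were 170, 158 and 161 CPM without acetate and 175, 196, 168 and 189 with it. The DMSO groups did not overlap and the inhibitor groups did, by a single library. Bcl2l1 rose with acetate in DMSO (log2 fold 0.31, SE 0.07, adjusted p = 0.0035), and with inhibitor its fold was 0.16 (SE 0.08, adjusted p = 0.141). The balance of the 2 abundant guardians therefore differed within libraries: Bcl2l1 counts per Mcl1 count were 0.967 ± 0.0932 (SD, n = 4) for DMSO vehicle against 1.73 ± 0.235 (n = 4) for DMSO acetate, and 1.05 ± 0.0496 (n = 3) against 1.56 ± 0.139 (n = 4) with inhibitor. This ratio does not depend on how libraries are scaled, and all 8 acetate libraries (1.43 to 1.98) lay above all 7 vehicle libraries (0.861 to 1.10). Bcl2 per Bcl2l1 likewise went from 0.172 ± 0.0346 to 0.0665 ± 0.00957 in DMSO and from 0.134 ± 0.0216 to 0.0503 ± 0.00473 with inhibitor.

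Both effectors were higher with acetate in DMSO. Bax, on chromosome 7 (7:45461697-45466898, minus strand), had 222, 169, 190 and 201 CPM in DMSO vehicle, against 238, 283, 248 and 255 in DMSO acetate. With inhibitor it had 204, 263 and 188 CPM without acetate and 235, 218, 204 and 196 with it. The DMSO groups were apart, whereas inhibitor vehicle spanned the whole range of inhibitor acetate, with inhibitor vehicle 2 highest. Bax rose with acetate in DMSO (log2 fold 0.39, SE 0.11, adjusted p = 0.0078), and its fold with inhibitor was -0.03 (SE 0.12, adjusted p = 0.853). In the acetate cultures all 4 inhibitor libraries were below all 4 DMSO libraries, with a fold of -0.26 (SE 0.11) that was not called (adjusted p = 0.166). The GENCODE gene Gm45808 shares up to 140 exon bases with Bax on the same strand, so reads of the pair cannot be told apart there even if strand was used.

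Bak1, on chromosome 17 (17:27019810-27029009, minus strand), measured 87.4, 79.0, 83.2 and 85.7 CPM in DMSO vehicle, against 108, 121, 115 and 120 in DMSO acetate. With inhibitor the values were 101, 126 and 82.2 CPM without acetate and 123, 111, 100 and 116 with it. Only the inhibitor vehicle group was spread out, its library 2 at the level of the acetate cultures. Bak1 rose with acetate in DMSO (log2 fold 0.47, SE 0.10, adjusted p = 0.0020). Its fold with inhibitor was 0.13 (SE 0.11, adjusted p = 0.395), but 0.30 (adjusted p = 0.0189) without inhibitor vehicle 2. Bak1 overlaps the antisense gene Ggnbp1, whose level was 3.13 to 4.60 CPM in the group means, far below that of Bak1.

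Of the BH3-only genes, Bbc3 was called higher with inhibitor in both acetate states, Bid with acetate only, and Bcl2l11 and Pmaip1 in neither. Promoters are shown for the 2 members that were higher with inhibitor with and without acetate, Hrk and Bbc3, and for the 2 whose fold with acetate was lowest in both arms, Bcl2 and Bcl2l11. Each sequence is the 250 bases before a RefSeq start (RefSeq, GRCm38.p6), 5′ to 3′ on the gene's strand, and capitals mark matches to GGGCGG (GC box, printed as CCGCCC where it lies on the other strand) and to TGTTTAC (FoxO, printed as GTAAACA on the other strand).
Hrk, chr5:118169514-118169763, plus strand: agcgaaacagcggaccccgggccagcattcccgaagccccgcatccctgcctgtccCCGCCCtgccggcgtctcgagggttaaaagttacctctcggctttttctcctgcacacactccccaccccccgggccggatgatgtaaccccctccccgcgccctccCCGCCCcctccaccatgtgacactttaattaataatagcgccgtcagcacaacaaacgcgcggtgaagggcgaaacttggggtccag
Bbc3, chr7:16310011-16310260, plus strand: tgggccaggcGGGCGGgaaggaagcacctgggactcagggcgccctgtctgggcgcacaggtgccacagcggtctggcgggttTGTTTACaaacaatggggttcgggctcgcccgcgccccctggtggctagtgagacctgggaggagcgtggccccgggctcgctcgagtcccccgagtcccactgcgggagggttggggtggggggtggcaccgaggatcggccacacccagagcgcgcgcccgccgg
Bcl2l11, chr2:128125788-128126037, plus strand: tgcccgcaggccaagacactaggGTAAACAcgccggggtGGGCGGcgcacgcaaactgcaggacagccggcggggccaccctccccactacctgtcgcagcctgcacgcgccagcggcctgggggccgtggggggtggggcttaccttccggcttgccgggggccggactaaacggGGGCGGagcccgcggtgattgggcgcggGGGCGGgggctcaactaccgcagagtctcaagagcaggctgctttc
Bcl2, chr1:106714291-106714540, minus strand: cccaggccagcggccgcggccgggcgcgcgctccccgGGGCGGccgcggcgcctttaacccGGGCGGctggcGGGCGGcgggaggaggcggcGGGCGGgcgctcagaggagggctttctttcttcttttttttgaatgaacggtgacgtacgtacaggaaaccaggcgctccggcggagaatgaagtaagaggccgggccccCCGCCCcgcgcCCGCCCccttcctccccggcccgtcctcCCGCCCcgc
The Hrk window lies inside the span of the GENCODE gene, which starts at 118164648, and its last bases overlap the first exon of a model. The Bbc3 window lies inside introns of longer models. RefSeq gives 3 starts for Bbc3 and 2 for Bcl2l11, and for each the 1 window that held FoxO letters is shown. Both strands were searched for 6 motifs. The FoxO letters occurred once in the Bbc3 window shown, at base 84, and once in the Bcl2l11 window shown, at base 24; the other 2 windows of Bbc3 and the other window of Bcl2l11 held 0. Of 32851 RefSeq promoters of the same length, 3.166% held them. GC boxes numbered 2 in Hrk, 1 in the Bbc3 window shown against 5 and 7 in its other windows, 3 in the Bcl2l11 window shown against 2 in its other, and 7 in Bcl2. At least 1 GC box was held by 32.74% of all promoters. These 4 windows held no match to the AP-1 motif TGANTCA, which 6.749% of promoters held. Neither the CRE (TGACGTCA, 1.546%) nor the ATF4 composite (TGATGCAA, 0.7915%) was matched in them. The TATA box letters, TATAAA, were absent from them too and stood in 12.37% of promoters. GC content was 63.2% in Hrk, 72.4% in the Bbc3 window shown (76.4% and 81.6% in its others), 72.0% in that of Bcl2l11 and 74.8% in Bcl2, beside a median of 52.4%. A match is a description of the letters, not of binding.

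Hrk, also called harakiri, is a BH3-only gene expressed largely in neurons whose protein binds BCL-XL and Bcl2 (5:118164648-118189478, plus strand). It measured 77.3, 69.8, 92.6 and 86.0 CPM in DMSO vehicle, against 119, 121, 101 and 100.01 in DMSO acetate. With inhibitor it measured 174, 277 and 129 CPM without acetate, and 204, 184, 203 and 203 with it. Every inhibitor library was above every DMSO library, and inhibitor vehicle was far more spread (coefficient of variation 39.3%) than inhibitor acetate (4.96%). Its log2 fold with inhibitor was 1.25 (SE 0.18, 2.37-fold) without acetate and 0.85 (SE 0.17, 1.80-fold) with acetate; these values chose the gene and carry no test. Without inhibitor vehicle 2, the library with the highest Hrk, the fold without acetate was 0.90. The acetate comparisons share libraries with those that chose Hrk. In DMSO, Hrk was higher with acetate in every library (log2 fold 0.44, SE 0.17, adjusted p = 0.043), a call that was lost in 11 of 15 fits leaving out a library (adjusted p 0.0501 to 0.127). With inhibitor the acetate fold was 0.04 (SE 0.18, adjusted p = 0.888), and 0.39 (adjusted p = 0.0237) without inhibitor vehicle 2.

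Bbc3, whose product PUMA binds all guardians and is a classical p53 target (7:16308393-16318205, plus strand), followed Hrk with inhibitor but not with acetate. Its level was 39.6, 44.0, 60.7 and 68.4 CPM in DMSO vehicle, against 57.6, 60.0, 48.5 and 55.8 in DMSO acetate. With inhibitor it was 132, 89.3 and 82.9 CPM without acetate and 85.4, 104, 89.4 and 85.2 with it. The inhibitor libraries were all above the DMSO libraries, and the acetate and vehicle libraries overlapped in both arms. Bbc3 rose with inhibitor 1.91-fold without acetate (log2 fold 0.93, SE 0.18, adjusted p = 0.0155) and 1.64-fold with acetate (0.71, SE 0.17, adjusted p = 0.0264). The first call was lost without inhibitor vehicle 1, the highest library (log2 fold 0.69, adjusted p = 0.0574). It was also lost when only the groups compared entered the fit (adjusted p = 0.229), where 0 of 14977 tested genes were called. The second call was lost in 7 of 15 fits that left out a library (adjusted p 0.0503 to 0.0740). Its acetate folds were 0.06 (SE 0.17, adjusted p = 0.775) in DMSO and -0.15 (SE 0.18, adjusted p = 0.538) with inhibitor.

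Bcl2l11, which encodes the effector activator BIM (2:128126038-128162547, plus strand), was the least abundant member per kilobase. It measured 6.13, 6.94, 8.30 and 8.46 CPM in DMSO vehicle, against 4.08, 3.39, 4.07 and 4.22 in DMSO acetate. With inhibitor it measured 9.12, 6.79 and 9.38 CPM without acetate and 4.53, 4.82, 5.15 and 4.32 with it. Acetate libraries were below vehicle libraries in both arms, and inhibitor acetate libraries sat just above the DMSO acetate ones. Bcl2l11 fell with acetate by 0.92 on the log2 scale in DMSO (SE 0.14, adjusted p = 0.000171) and by 0.84 with inhibitor (SE 0.15, adjusted p = 0.00138). Its inhibitor folds were 0.18 (SE 0.15, adjusted p = 0.480) and 0.26 (SE 0.14, adjusted p = 0.319), neither called.

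Bid, a BH3-only protein that links death receptors to mitochondria once caspase-8 cleaves it (6:120891930-120916853, minus strand), stood out in inhibitor acetate. It had 12.9, 22.6, 22.7 and 20.2 CPM in DMSO vehicle, against 19.6, 17.9, 16.3 and 17.7 in DMSO acetate; it measured 20.6, 20.3 and 23.5 in inhibitor vehicle, and 27.5, 29.3, 31.0 and 29.2 in inhibitor acetate. All 4 libraries that received both agents were above the other 11, which overlapped one another. Bid rose with inhibitor in the acetate cultures (log2 fold 0.71, SE 0.14, adjusted p = 0.0122) and with acetate in the inhibitor cultures (0.45, SE 0.15, adjusted p = 0.0325); the latter call was lost in 5 of 15 fits that left out a library (adjusted p 0.0573 to 0.106). Acetate in DMSO gave -0.13 (SE 0.14, adjusted p = 0.453), but -0.30 (adjusted p = 0.00766) without DMSO vehicle 1, and the inhibitor without acetate gave 0.13 (SE 0.15, adjusted p = 0.612). Bid overlaps the antisense gene Bcl2l13 by 628 exon bases, so reads of the pair cannot be told apart there if strand was not used. Bcl2l13 itself had group means of 38.7 to 41.2 CPM and no call in the 4 comparisons of groups (log2 folds -0.09, 0.06, -0.08 and 0.07).

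Pmaip1 encodes NOXA, which binds Mcl1, and is another p53 target (18:66458533-66465565, plus strand). Its levels were low: 11.7, 11.5, 7.65 and 8.23 CPM in DMSO vehicle, against 5.49, 4.80, 5.34 and 7.08 in DMSO acetate; it measured 6.78, 11.7 and 7.53 in inhibitor vehicle, and 9.88, 9.46, 7.33 and 9.04 in inhibitor acetate. The DMSO acetate libraries were the low ones, below every DMSO vehicle and every inhibitor acetate library. Pmaip1 fell with acetate in DMSO by 0.79 on the log2 scale (SE 0.19, adjusted p = 0.00367), and its fold with inhibitor was 0.05 (SE 0.21, adjusted p = 0.881). With inhibitor in the acetate cultures the fold was 0.66 (SE 0.20, adjusted p = 0.0607); the DESeq2 Wald test called it (adjusted p = 0.0174).

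Over the 9 members other than Hrk, the inhibitor without acetate gave 1 higher call (Bbc3) and 0 lower, where 3.47% of all tested genes were called higher and 1.99% lower. By unadjusted p under 0.05, 3 of the 9 passed, beside 25.4% of all genes. The DESeq2 Wald test also called 1, and it called more of all genes (6.76% higher and 4.99% lower). When only the groups compared entered the edgeR fit, 0 of 14977 genes were called higher and 0 lower. No edgeR call given here for the inhibitor without acetate, in the members or in the lists, was made in that fit. With acetate, the inhibitor gave 2 higher calls (Bbc3 and Bid) and 1 lower (Bcl2), beside 2.36% and 3.42% of all genes. The family was chosen with these comparisons known, so nothing is read from those shares. Counting Hrk, chosen for this difference, 2 members were higher in every inhibitor library than in every DMSO library without acetate and 0 were lower, where 9.34% and 7.36% of all tested genes were. With acetate 5 were higher in every inhibitor library (Hrk, Bbc3, Bid, Pmaip1, Bcl2l11) and 2 lower (Bcl2 and Bax), beside 8.96% and 12.4% of all genes. Of these, Pmaip1, Bcl2l11 and Bax were not called, and nothing is read from the roles of the genes.

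Genes of dividing cells also moved with the inhibitor. Over all genes, edgeR, DESeq2 and the fit with the non-neuronal covariate called 1.99%, 4.99% and 6.52% lower with the inhibitor without acetate. Of 10 cell cycle genes they called 5 (median log2 fold -0.99 in edgeR), 8 and 10 lower. The replication genes Mcm2 and Pcna were among them: Mcm2 averaged 32.2 CPM in DMSO vehicle libraries and 19.7 CPM in inhibitor vehicle libraries (log2 fold -0.71, SE 0.14, adjusted p = 0.0155), and Pcna 42.9 and 26.8 CPM (-0.67, SE 0.13, adjusted p = 0.0155). In the acetate cultures edgeR and DESeq2 each called 0 of the 10 (median -0.63; 6 at an unadjusted p under 0.05), and the covariate fit 6 lower. What part this shift has in the members' inhibitor values was not tested.

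**Figure D3:**
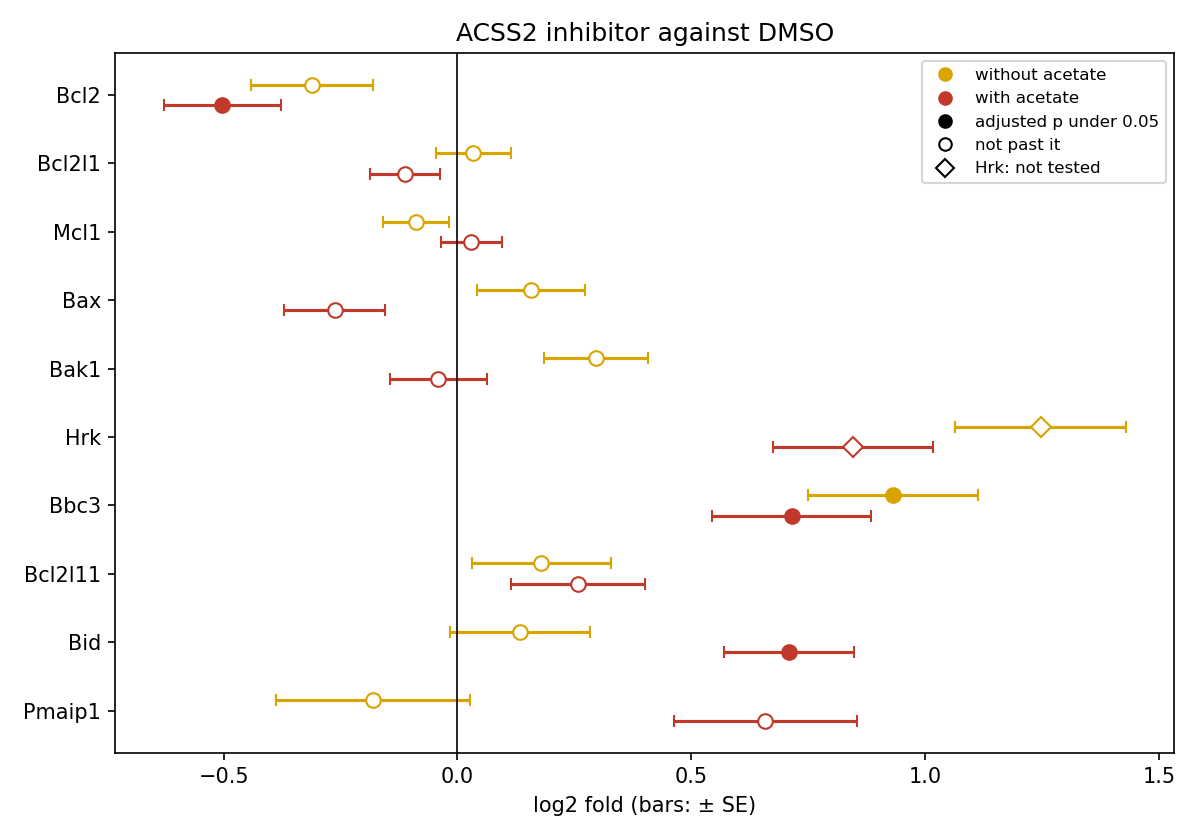
Log2 fold of each BCL2 family gene (y axis) for ACSS2 inhibitor against DMSO, without acetate (yellow) and with acetate (red), with the SE as bars; filled circles have an adjusted p under 0.05, and Hrk is drawn as open diamonds because it was not tested. Hrk (1.25 and 0.85) lies farthest to the right in both states. Bbc3 (0.93 and 0.71) is next, level with Bid (0.71) in the acetate state. With acetate all 5 BH3-only members lie to the right of 0, but Bcl2l11 and Pmaip1 were not called. Bad, a BH3-only gene not drawn here, averaged 122 CPM in DMSO acetate and 105 CPM in inhibitor acetate, a difference also not called.

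The ratio of Hrk to a guardian within a library needs no scaling. Hrk counts per Bcl2l1 count were 0.511 ± 0.0505 (SD, n = 4) for DMSO vehicle and 0.560 ± 0.0125 (n = 4) for DMSO acetate, against 1.19 ± 0.500 (n = 3) and 1.10 ± 0.121 (n = 4) for the inhibitor groups without and with acetate. These are ratios of reads, and the exon models differ in length: per kilobase, Hrk averaged 34.1 and 35.0 CPM in the inhibitor groups without and with acetate, below Bcl2l1 at 35.5 and 39.7. Hrk counts per Bcl2 count were 3.07 ± 0.636, 8.58 ± 1.40, 9.54 ± 5.69 and 21.8 ± 1.53 in the same order of groups, so the library sets with both agents (19.8 to 23.3) were above all others (2.25 to 16.0). Bbc3 per Bcl2l1 was 0.334 ± 0.0806, 0.282 ± 0.0166, 0.618 ± 0.137 and 0.501 ± 0.0390. The Hrk ratios carry no test, since they contain the values that chose Hrk.

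Whether the acetate response differed between inhibitor and DMSO was tested directly. Of the 9 members tested, 0 were called in edgeR's quasi-likelihood test, with 0.0133% of all genes called higher and 0.00663% lower. That background depends on single libraries: without inhibitor vehicle 3, 1.71% of genes were called higher and 4.89% lower. By unadjusted p under 0.05, 4 of 9 passed, beside 20.7% of all genes. These were Pmaip1 (difference of log2 folds 0.84, SE 0.29, adjusted p = 0.118), Bid (0.57, SE 0.20, adjusted p = 0.131), Bax (-0.42, SE 0.16, adjusted p = 0.153) and Bak1 (-0.34, SE 0.15, adjusted p = 0.225). The DESeq2 Wald test called 1 of them, Pmaip1 (adjusted p = 0.0498), and edgeR called Pmaip1 (1.03, adjusted p = 0.0312) and Bid (0.69, adjusted p = 0.0113) when DMSO vehicle 1 and inhibitor vehicle 2 were left out. In those fits the background was larger too: 2.39% higher and 7.05% lower by DESeq2, and 1.56% and 2.74% without the 2 libraries. Without inhibitor vehicle 3 alone, edgeR called Bak1 lower (-0.46, adjusted p = 0.0437). Without DMSO vehicle 1 alone it called Bid higher (0.75, adjusted p = 0.0270), beside 0.2% of all genes higher and 0.233% lower. For Bcl2, Mcl1 and Bcl2l11, which were lower with acetate in both arms, the differences were -0.19 (SE 0.18), 0.12 (SE 0.10) and 0.08 (SE 0.21). For Hrk, with no test, the difference was -0.40 (SE 0.25), and -0.05 without inhibitor vehicle 2. The comparisons share libraries, so their folds are not independent of each other.

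The acetate folds depend on what libraries are compared against. When libraries were scaled on the neuron markers, which moved the median of all genes by -0.89 in DMSO and -0.66 with inhibitor, the 4 members called higher in DMSO had negative folds and were called lower (Hrk -0.46, Bcl2l1 -0.58, Bax -0.48, Bak1 -0.42). Those folds still lay above that shift, and the other 6 members were called lower too, as were 87.2% of all genes on this scale (75.1% with inhibitor), so the count of members says little about them. When the non-neuronal score entered the fit as a covariate, 3 of the 8 calls in DMSO were made, those of Bcl2, Mcl1 and Pmaip1, each lower. Calls over all genes also dropped there, to 6.83% higher and 5.39% lower. Bcl2l1 was not called although its fold was 0.30 as before (adjusted p = 0.127), Bak1 (0.07) and Bcl2l11 (-0.46) were not called either, and Hrk (-0.20) and Bax (-0.014) changed sign and were not called. The inhibitor folds of Hrk were 1.10 and 0.99 on the neuron scale and 0.96 and 0.81 with the covariate, without and with acetate.

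**Figure D4:**
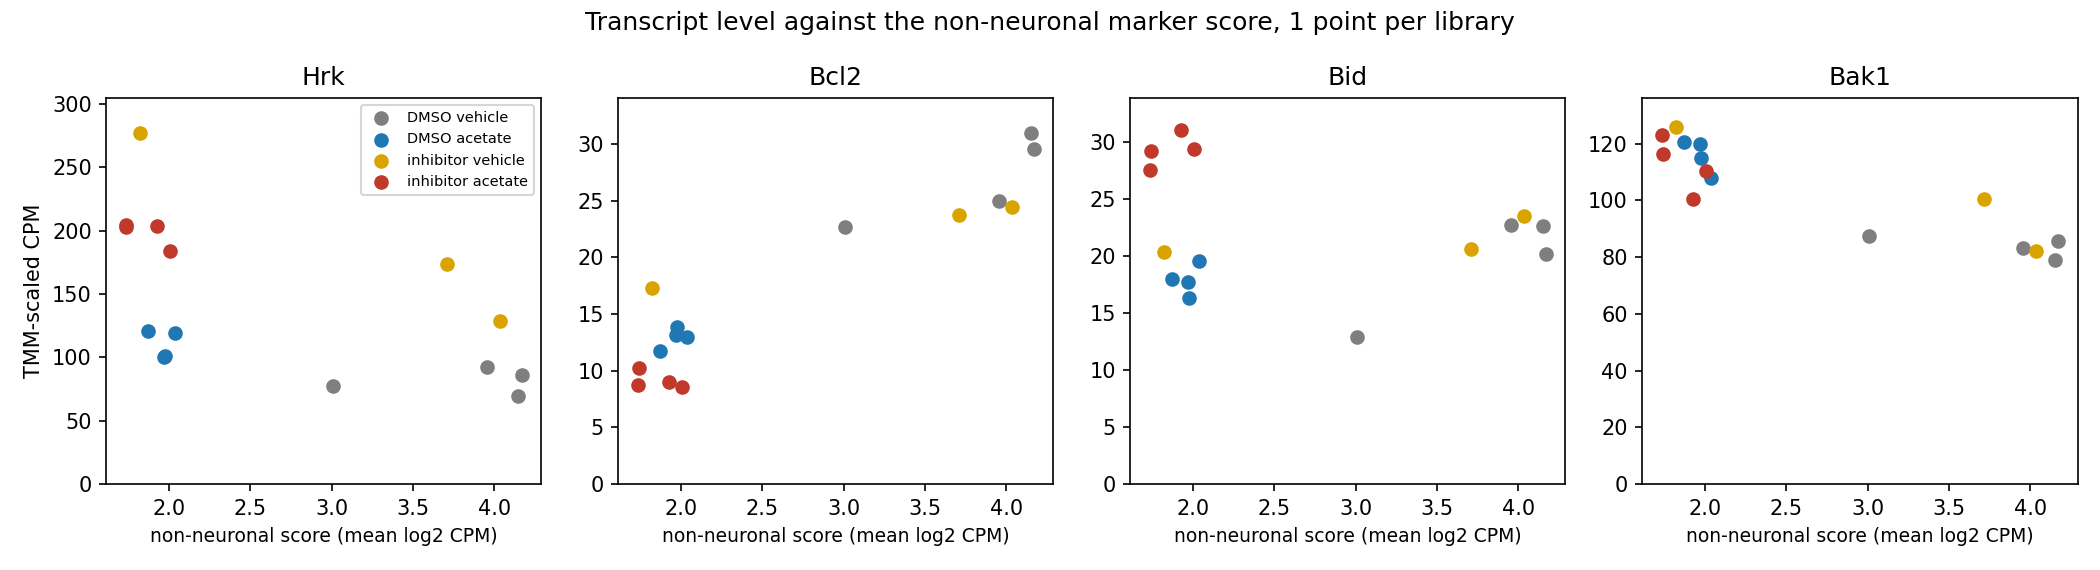
TMM-scaled CPM of Hrk, Bcl2, Bid and Bak1 (y axes) against the non-neuronal marker score (x axes, mean log2 CPM), with 1 point per library coloured by group. At a score near 2, where inhibitor vehicle 2 (1.82) joins the acetate libraries, Bid separates the inhibitor acetate libraries (27.5 to 31.0 CPM) from the others, and Hrk separates inhibitor from DMSO libraries across the range.

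Other genes of the apoptosis machinery were read from lists chosen by function. Among other members and relatives of the family not listed as guardians, 8 of 10 were tested. Acetate in DMSO raised 4 and lowered 1 (median log2 fold 0.29), where 23.7% and 27.5% of all tested genes were called higher and lower. Those raised were Bad, a BH3-only partner of BCL-XL (0.60, SE 0.08, adjusted p = 7.26e-05), the mitophagy receptors Bnip3 (0.74, SE 0.11, adjusted p = 9.35e-05) and Bnip3l (0.45, SE 0.09, adjusted p = 0.000857), and the effector relative Bok (0.72, SE 0.14, adjusted p = 0.000918). With inhibitor, acetate raised 2 (Bnip3 0.46, Bok 0.51) and lowered 1 (Bcl2l12 -0.41), beside 14.5% and 20.6% of all genes. Scaled on neuron markers, 0 of these genes were called higher in either arm, and 5 were called lower in each. On that scale 87.2% of all genes were lower in DMSO and 75.1% with inhibitor. The inhibitor without acetate raised 1, Bnip3l (0.44, SE 0.09, adjusted p = 0.0208), beside 3.47% of all genes. Of other guardians, 3 of 5 were tested and all 3 fell with acetate in DMSO. Bcl2l2 had a log2 fold of -0.23. The near-identical copies Bcl2a1b and Bcl2a1d, whose reads could be split, had log2 folds of -6.01 and -5.61. With inhibitor only these 2 copies were called lower (-4.74 and -4.34), with libraries that overlapped. Bcl2l2 there averaged 33.2 CPM without acetate and 37.5 CPM with it, not called. With the non-neuronal covariate 0 of the 3 were called for acetate in either arm. Bcl2a1b is mainly a leukocyte gene. In DMSO its mean went from 8.79 CPM to 0.120 CPM with acetate while the microglial markers fell as given above. What part they have in it was not tested.

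Downstream of the family, 22 caspase and apoptosome genes were tested. Acetate in DMSO raised 6 and lowered 4, beside 23.7% and 27.5% of all tested genes. With inhibitor it raised 3 and lowered 2, beside 14.5% and 20.6%. On the neuron scale, where most genes of the table were lower, 0 were higher and 22 and 17 lower. The mitochondrial channels Vdac3 (0.51) and Vdac1 (0.39) rose in DMSO. Casp8, which cleaves Bid, fell in both arms (-2.42, SE 0.42, and -1.92, SE 0.45), but its levels were low. Its means without and with acetate were 2.26 and 0.435 CPM in DMSO. With inhibitor they were 1.58 and 0.417 CPM, with libraries that overlapped. With inhibitor in the acetate cultures, Apaf1, the apoptosome scaffold, rose (0.45, SE 0.11, adjusted p = 0.0311) and Cycs, cytochrome c, fell (-0.42, SE 0.11, adjusted p = 0.0404). Without acetate the inhibitor lowered Aifm1, a flavoprotein of mitochondria (-0.35, SE 0.10, adjusted p = 0.0457).

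Upstream of the BH3-only genes, the list of 19 JNK and FoxO genes had 8 higher and 3 lower calls with acetate in DMSO. With inhibitor it had 7 and 3. The shares of all genes were 23.7% and 27.5% in DMSO and 14.5% and 20.6% with inhibitor. On the neuron scale 0 were higher and 17 and 13 lower. Scaffold genes of the JNK cascade were among the higher ones (Mapk8ip2 0.79, Mapk8ip1 0.69 in DMSO), and so was Mapk8, which encodes JNK1 (0.64 with inhibitor). The stress factor Atf3 fell in both arms (-3.87, SE 0.51, and -2.94, SE 0.50). In the inhibitor comparisons edgeR called 1 of these genes, and the DESeq2 Wald test called 3 higher without acetate and 1 higher with it. Over all genes, edgeR called 3.47% and 2.36% higher without and with acetate, and DESeq2 6.76% and 4.58%. The gene called by edgeR was Ddit3, which encodes CHOP (0.90, SE 0.23, adjusted p = 0.0387, without acetate), with libraries that overlapped; its group mean was 62.6 CPM for DMSO vehicle and 116 CPM for inhibitor vehicle. Beside the same acetate shares of all genes, acetate raised 2 and lowered 10 of 19 genes of the p53 list in DMSO. With inhibitor it raised 2 and lowered 8. Trp53 itself was among those that fell (-0.57, SE 0.10, and -0.67, SE 0.11), as were Btg2 (-0.87 and -0.93), a growth arrest gene, and Gadd45a (-1.19 and -1.27), a DNA damage gene. The inhibitor called 0 of the 19 in edgeR's quasi-likelihood test without and with acetate. There 4 and 4 had an unadjusted p under 0.05, beside 25.4% and 22% of all genes. The DESeq2 Wald test called 1 lower without acetate and 1 higher with it.

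Of 11 tested death receptor genes, acetate in DMSO raised 1 and lowered 7, beside 23.7% and 27.5% of all genes. With inhibitor it raised 0 and lowered 8, beside 14.5% and 20.6%. Fas fell in both arms (-1.91, SE 0.24, and -1.36, SE 0.25), as did the TRAIL receptor Tnfrsf10b (-1.30 and -1.10) and the kinase Ripk1 (-0.98 and -0.84). The inhibitor lowered 1 of them in both states, Ngfr, the p75 neurotrophin receptor (-0.90, SE 0.15, adjusted p = 0.00817, and -0.89, SE 0.14, adjusted p = 0.00333). Over all genes 1.99% and 3.42% were called lower in these 2 states. Without acetate Ngfr averaged 15.8 CPM in DMSO and 8.47 CPM with inhibitor, and with acetate 12.8 and 6.91 CPM, and the inhibitor libraries lay below the DMSO libraries in each state. Acss2, the inhibitor's target, had inhibitor folds of -0.51 (SE 0.16, adjusted p = 0.0716) and -0.27 (SE 0.15, adjusted p = 0.305), not called, which says nothing of enzyme activity. With the non-neuronal covariate fewer acetate calls were made in these lists. Over all genes they also dropped, to 6.83% higher and 5.39% lower in DMSO. In DMSO the higher and lower counts were 2 and 0 for the other members not listed as guardians, and 0 and 1 for the caspase list. They were 1 and 2 for JNK and FoxO, 0 and 6 for p53, and 1 and 2 for death receptors. On the neuron scale edgeR called 0 genes of these 5 lists in either inhibitor comparison, and at most 4 in any list had an unadjusted p under 0.05; over all genes 0.126% were higher and 0.139% lower without acetate. With the covariate more inhibitor calls were made than without it, over all genes as well. It called 7.36% of all genes higher and 6.52% lower without acetate, and 5.59% and 9.06% with it. Beside these, the counts without acetate were 5 higher and 3 lower for JNK and FoxO. They were 0 and 3 for the caspase list and 1 and 2 for p53, and with acetate 3 and 1, 1 and 2, and 1 and 1.

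Across the 15 libraries the log2 CPM of Bbc3 followed Hrk most closely among the members (Pearson r 0.81), ahead of Bak1 (0.63) and Bid (0.59), and Bcl2 ran opposite (-0.61). Among 11172 genes whose log2 CPM averaged 2 or more, the most alike were Atg13 (0.94), an autophagy initiation factor, Kctd2 (0.94), Rnf32 (0.94), AW551984 (0.93) and Mtus2 (0.92). Their folds with inhibitor, like those of Hrk, were above 0 in both states: Kctd2 had 0.78 and 0.76, and Mtus2 0.62 and 0.83. These genes were picked for following Hrk in the same libraries, and Hrk for its inhibitor difference, so their folds are no separate finding. These correlations are descriptions over libraries that share groups, depth and composition, and carry no test.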

How the data were processed

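RNA-seq of cultured mouse neurons gave 15 libraries; per the labels they were made with NEBNext Ultra II Directional reagents. Values are raw counts of reads for each gene symbol, deposited by the authors without normalization. STAR 2.5.2a, HTSeq 0.6.1p1, DESeq2 and mm10 are named in the submitters' processing notes; annotation and strand setting: not given in the sources used here. The 5 summary lines without a gene (38.9% to 47.4% of a library) were left out.

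In R 4.3.3, edgeR 4.0.16 (default low-count filter, TMM factors 0.885 to 1.13, group means over all 15 libraries) was fitted to all genes with quasi-likelihood tests of 5 comparisons, adjusted by Benjamini-Hochberg over 15075 genes. A gene was called at an adjusted p under 0.05. The SE was taken as the log2 fold over the root of the F statistic. Log2 CPM used a prior count of 2. Steps were tested on simulated data. Counts of the 21 within-group pairs all differed by more than sampling noise. Alternatives covered scaling, filter, tool (DESeq2 1.42.0), a non-neuronal covariate, libraries left out and a replicate block.

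The members and gene lists were chosen with earlier results of these data known. Named genes are all members, up to 4 called genes with the smallest p per list and comparison, the 5 genes most correlated with Hrk, and Acss2; 1 gene that this rule names is not reported here. Xist, Eif2s3y, Ggnbp1, Gm45808, Bcl2l13 and Bcl2l12 were named in addition.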

Additional observations from a re-analysis of the deposited data

Results flagged for a closer look

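Among the 30 sets examined (10 genes in the 3 groups of 4 libraries), 1 library lay far from the rest of its group: Hrk in inhibitor acetate 2 was 184 CPM, where the other 3 libraries had 203 to 204 CPM. The gap was 0.923 of the group's range, above Dixon's 95% critical value for 4 libraries. Chance gives about 1 such library in 20 groups. The value is still above the Hrk level of every DMSO library.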

How the results depend on the processing

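The number of members called with acetate in DMSO was 8, and 3 with the non-neuronal covariate; leaving out a library gave 7 to 8. With acetate and inhibitor it was 4, and 9 scaled on neuron markers (3 to 5 with a library left out). For the inhibitor without acetate it was 1, and 0 scaled on neuron markers or with only the groups compared (0 to 2). For the inhibitor with acetate it was 3, and 0 scaled on neuron markers, 5 with the covariate, 5 without DMSO vehicle 1 and inhibitor vehicle 2, 5 with only the groups compared, and 1 to 4 with a library left out. For the difference of responses it was 0, and 1 with the covariate, 2 without those libraries and 1 by DESeq2 (0 to 1). With the replicate block the inhibitor count with acetate was 1, Bid; numbers did not pair the libraries (6 of 21 same-number pairs correlated above 0.1, range -0.65 to 0.38, and 2 of 15 libraries matched best with their own number). The block also took the calls of Hrk with acetate in DMSO (adjusted p = 0.0731 in edgeR) and Bid with acetate and inhibitor (0.0528).

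Folds that changed sign with a call involved were those scaled on neuron markers in DMSO (Hrk -0.46, Bcl2l1 -0.58, Bax -0.48, Bak1 -0.42, Bbc3 -0.86) and with inhibitor (Hrk -0.58, Bcl2l1 -0.52, Bak1 -0.51, Pmaip1 -0.58, Bid -0.23), and with the covariate Hrk (-0.20) and Bax (-0.014) in DMSO. The neuron scale moves the median of all genes by -0.89 and -0.66, which turns any positive fold smaller than that shift; for the covariate the cause was not tested. DESeq2 size factors and the absence of a low-count filter changed no count of calls, and upper-quartile scaling took 1, Hrk with acetate in DMSO (adjusted p = 0.0637 in edgeR). Depth limits Bcl2l11 and Pmaip1 most, the members with the fewest counts.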
